A study of Mus musculus with 19 samples.

Results

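Long noncoding RNAs of the nucleus and long noncoding hosts of small nucleolar RNAs (snoRNAs) were followed in mouse mammary carcinoma cells taken from tumors of obese or lean mice. The set held 6 genes, chosen by symbol: the nuclear RNAs Malat1, Neat1 and Kcnq1ot1, and the snoRNA hosts Gas5, Snhg1 and Snhg12. Of the 39017 gene rows of the count table, 5 were assigned to these symbols, 4 by identifier and Snhg1 by its position. All 5 passed the filter on low counts and are among the 16352 genes tested. No row was assigned to Kcnq1ot1, which is not analysed here.

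The cells were E0771, a line derived from a C57BL/6 mammary carcinoma, and carried the fluorescent protein mCherry. They were grown in the mammary fat pad of C57BL/6 mice, freed from the dissociated tumor and collected by fluorescence-activated sorting on mCherry. The 4 groups were obese endpoint (5 libraries, titled HFD, day 21), lean endpoint (4 libraries used, titled Chow, day 21), obese midpoint (5 libraries, titled HFD, day 14) and lean midpoint (4 libraries, titled Chow, day 14). HFD is taken as high-fat diet. Every group therefore had the same line, strain, site and sort, and differed in host diet and in time. The sources used here give neither host age and sex nor the way RNA was selected for the libraries (poly(A) capture or removal of ribosomal RNA). Time, tumor size and any change of handling between the 2 harvests cannot be told apart.

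Malat1 is an abundant RNA of nuclear speckles, the bodies where splicing factors gather. Neat1 is the scaffold on which paraspeckles, another kind of nuclear body, are built together with proteins such as Nono and Sfpq. The stable 3′ ends of Malat1 and of the long form of Neat1 are not poly(A) tails. An enzyme that cuts tRNA precursors releases them, and a U-rich and an A-rich stretch fold into a triple helix that protects the end. Gas5, Snhg1 and Snhg12 are spliced RNAs whose introns carry snoRNAs, the guides for chemical modification of ribosomal RNA. Such hosts are known for transcripts that begin, like those of ribosomal protein genes, with a 5′ terminal oligopyrimidine (TOP) stretch, although the length of that stretch varies with the start used. The spliced RNA is degraded by nonsense-mediated decay once ribosomes engage it, so that its level follows both growth-related transcription and translation.

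The 3′ regions of Malat1 and Neat1 are shown because this feature joins the 2 nuclear RNAs and sets them apart from the snoRNA hosts. In the 2 stretches of 130 bases, on the minus strand of chromosome 19 (chr19:5795982-5796111 for Malat1 and chr19:5824708-5824837 for Neat1, mm10, GENCODE M21 models), the capitals mark the U-rich motif TTTTNCTTTT and the A-rich motif AAAAAGCAAAA, the last 11 bases of the annotated Neat1 transcript.
Malat1: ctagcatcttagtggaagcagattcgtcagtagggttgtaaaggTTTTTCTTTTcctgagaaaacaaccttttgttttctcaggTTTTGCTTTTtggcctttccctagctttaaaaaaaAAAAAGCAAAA
Neat1: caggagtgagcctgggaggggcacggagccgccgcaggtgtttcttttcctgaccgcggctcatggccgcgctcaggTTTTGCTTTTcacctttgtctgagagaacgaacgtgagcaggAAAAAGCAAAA
Read on the transcript strand alone, with T standing for U, the Malat1 stretch held 2 copies of the U-rich motif and the Neat1 stretch held 1. Among 55450 genes, each by its longest annotated transcript, 3 (0.00541%) had the U-rich motif followed within 130 bases by the A-rich motif, and they were Malat1, Neat1 and Ahdc1. The A-rich motif alone was found in 304 of them (0.548%).

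The starts of the 3 snoRNA hosts are shown for their pyrimidine runs, which the capitals mark. They lie at chr1:161035166-161035190 (Gas5), chr19:8723487-8723511 (Snhg1) and chr4:132308676-132308700 (Snhg12), all on the plus strand, and each is the annotated start shared by the most transcripts of its gene, or the most upstream of ties. That start is shared by 4 of 25 transcripts of Gas5, 2 of 18 of Snhg1 and 2 of 10 of Snhg12.
Gas5: CTTTCggagctgtgcggcattctga
Snhg1: CTCatttttccttgttcggggtaag
Snhg12: CCTTTCTCgcttcatccgcggtccc
The leading run was 5 bases in Gas5, 3 in Snhg1 and 8 in Snhg12. A C at the first base followed by a run of at least 3 pyrimidines in all was found at the start of 5.48% of the longest transcripts searched above, and a run of at least 5 at 1.91%. Those starts were not picked by the rule used for the hosts, so the shares are a rough guide.

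The 18 libraries held 44174080 to 56996252 counts. They differed from each other in a trend with the GC content of genes, expressed as a slope in log2 CPM (counts scaled to library size) per 10 percentage points of GC relative to the mean of all libraries. This slope averaged -0.70 ± 0.18 in obese endpoint libraries, -0.56 ± 0.35 in lean endpoint libraries, 0.95 ± 0.46 in obese midpoint libraries and 0.26 ± 0.17 in lean midpoint libraries (SD, n = 5, 4, 5 and 4). Genes of the mitochondrial genome took 17.1% to 24.4% of the counts in obese endpoint libraries, 17.1% to 44.7% in lean endpoint libraries, 5.79% to 8.06% in obese midpoint libraries and 8.95% to 12.3% in lean midpoint libraries. Lean endpoint replicate 1 stood apart with the 44.7% and a scaling factor of 0.61, against 0.86 to 1.21 in the other 17. The 5 RNAs are all AT-rich (40.5% to 47.6% GC). Comparisons of them are therefore given as counted and after a correction of every library for GC content and annotated exon length. Under each diet every endpoint library had a lower slope than every midpoint library. The correction therefore cannot tell a technical trend from a change with time that follows GC content. Corrected values are relative to genes of like GC content and length. Some genes named from the lists below are given as counted only, and need not keep their direction after the correction. Lean endpoint replicate 4 was left out because its counts end within chromosome 5.

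Levels are given as counts per 1000000 counts (CPM), with library sizes scaled by the TMM method. Fold changes are log2 values with their standard error (SE) from edgeR, and a change is called at an adjusted p under 0.05 over all 16352 genes tested. Levels of different RNAs can be compared only per length, and only roughly. The length used for Snhg1 is its whole span of 2947 bases, introns included. That used for Neat1, 20771 bases, is the long form, while the counts join the long and short forms. Their places in the order below depend on these lengths. Per kilobase of annotated exon, Malat1 was far above the rest in obese endpoint libraries with 460 ± 191 CPM per kb, followed by Gas5 (83.3 ± 4.41), Snhg12 (28.8 ± 4.29), Snhg1 (21.4 ± 2.69) and Neat1 (11.6 ± 4.34; SD, n = 5). In obese midpoint libraries the order was Gas5 with 61.6 ± 6.70 CPM per kb, Snhg12 (49.5 ± 17.2), Malat1 (47.1 ± 5.45), Snhg1 (21.3 ± 3.67) and Neat1 (4.65 ± 0.812; SD, n = 5). Snhg12 and Malat1 differed there by less than their SDs. In lean midpoint libraries Malat1 and Gas5 were level, with 64.0 ± 9.14 and 63.5 ± 4.19 CPM per kb (SD, n = 4). Together the 5 RNAs took 0.252% to 0.565% of the counts in obese endpoint libraries, 0.160% to 0.486% in lean endpoint libraries, 0.0727% to 0.0930% in obese midpoint libraries and 0.0934% to 0.109% in lean midpoint libraries.

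**Figure D1:**
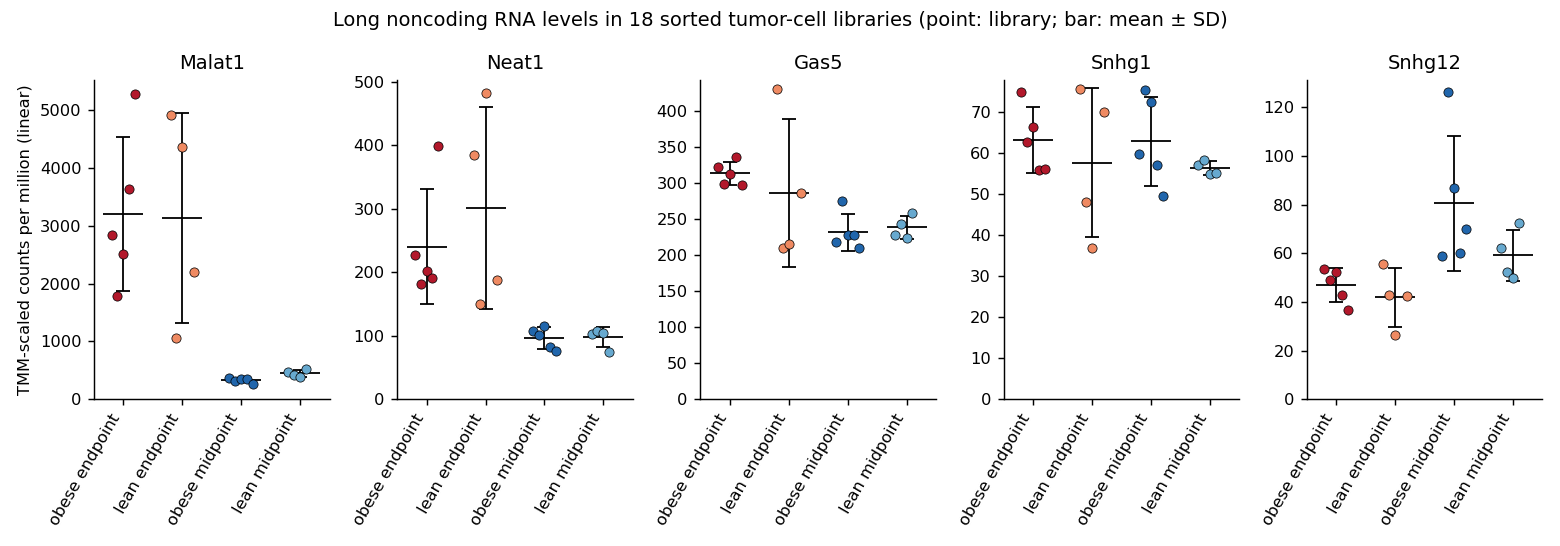
Level of each RNA in TMM-scaled CPM on a linear axis, 1 point per library, with the mean and SD of each group. All Malat1 and Neat1 values at endpoint lie above all midpoint values, Snhg12 is lower at endpoint than at midpoint in obese mice without overlap, and the Snhg1 groups overlap. The share of all genes without overlap was not counted.

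Malat1 was higher at endpoint than at midpoint under both diets, and of the 5 RNAs it changed most as counted. The gene is a single exon block of 6983 bases on chromosome 19 (5795690 to 5802672, minus strand, ENSMUSG00000092341), so the row covers the whole annotated transcript. Inside it lie 2 smaller rows with 0 counts in every library. How reads over them were counted is not known. Its level was 2848, 1786, 2510.1, 3634 and 5279 CPM in obese endpoint replicates 1 to 5, against 368, 314, 348, 344 and 270.0 CPM in obese midpoint replicates 1 to 5. In lean endpoint replicates 1, 2, 3 and 5 it was 4926, 1054, 4360 and 2207 CPM, against 463, 415, 381 and 528 CPM in lean midpoint replicates 1 to 4. The lowest endpoint library of either diet stood above every midpoint library. The ratio of the means was 9.77 in obese and 7.02 in lean mice. The log2 fold change was 3.29 ± 0.34 in obese mice (SE; adjusted p = 4.3e-07) and 2.81 ± 0.37 in lean mice (adjusted p = 0.00017).

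At endpoint the Malat1 values were also the most spread, by a factor of 4.68 from lowest to highest in lean and 2.95 in obese mice, against 1.39 in lean midpoint libraries. Within the lean endpoint group the order of the libraries by Malat1 CPM was also their order by mitochondrial share. Within the obese endpoint group it was so but for the top pair, whose shares differed little. The lean order depends on the TMM scaling. As a plain percentage of counts, Malat1 was higher in lean endpoint replicate 3 (0.414%) than in replicate 1 (0.299%). Lean endpoint replicates 2, 5, 3 and 1, in rising order of Malat1 CPM, had 17.1%, 20.7%, 23.2% and 44.7% of their counts from the mitochondrial genome, and GC slopes of -0.06, -0.68, -0.63 and -0.87. Obese endpoint replicates 2, 3, 1, 4 and 5, in the same order, had 17.1%, 20.4%, 23.0%, 24.4% and 24.4%, and GC slopes of -0.42, -0.65, -0.73, -0.84 and -0.87. With the GC and length correction the Malat1 rise was smaller and still called, 1.01 ± 0.25 in obese mice (SE; adjusted p = 0.0022) and 1.51 ± 0.29 in lean mice (adjusted p = 0.0015). The part of the mitochondrial share in the rise was not tested. As these are bulk libraries, a change in the number of cells that express an RNA and a change in its amount per cell cannot be told apart.

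Neat1, the paraspeckle scaffold, was also higher at endpoint as counted, by less than Malat1. Its row is 1 block of 20771 bases on chromosome 19 (5824708 to 5845478, minus strand, ENSMUSG00000092274), which covers the long form that builds paraspeckles together with the short form, and the counts do not separate them. Its level was 228, 181, 203, 190.4 and 398.5 CPM in obese endpoint replicates 1 to 5, against 107, 102, 116, 82.0 and 76.3 CPM in obese midpoint replicates 1 to 5. In lean endpoint replicates 1, 2, 3 and 5 it was 384, 150.2, 482 and 187 CPM, against 103, 107.5, 105 and 74.0 CPM in lean midpoint replicates 1 to 4. The endpoint and midpoint values did not overlap under either diet. The log2 fold change was 1.31 ± 0.28 in obese mice (SE; adjusted p = 0.00035) and 1.63 ± 0.32 in lean mice (adjusted p = 0.00092). Once corrected for GC and length it was -0.32 ± 0.22 in obese mice, not called (adjusted p = 0.22), and 0.73 ± 0.25 in lean mice, called (adjusted p = 0.035). A rise of Neat1 called in both versions was therefore found in lean mice only. It is not shown to differ from the change in obese mice, as the corrected difference between the diets (-1.05) was not called. The lean call was also lost when the corrected fit included the replicate number (0.66, adjusted p = 0.066).

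Of the 5 RNAs, 3 rose and 1 fell with time in obese mice, where 73.9% of all genes tested were called, 37.8% up and 36.1% down. In lean mice 2 of the 5 rose and 0 fell, where 30.9% of all genes were called, 21.4% up and 9.5% down. The lean background count of 5053 genes called was 3251 without lean midpoint replicate 1. After the GC and length correction, 1 of the 5 rose and 3 fell in obese mice, where 57.1% of all genes were called, 24.3% up and 32.8% down. In lean mice 2 rose and 2 fell, where 24.2% of all genes were called, 11.9% up and 12.3% down. Each member count, and each count from the gene and marker lists below, has to be read against these shares. How many of all genes tested had groups without overlap was not counted. A lack of overlap, above and below, is therefore a description and is not shown to be particular to these RNAs.

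**Figure D2:**
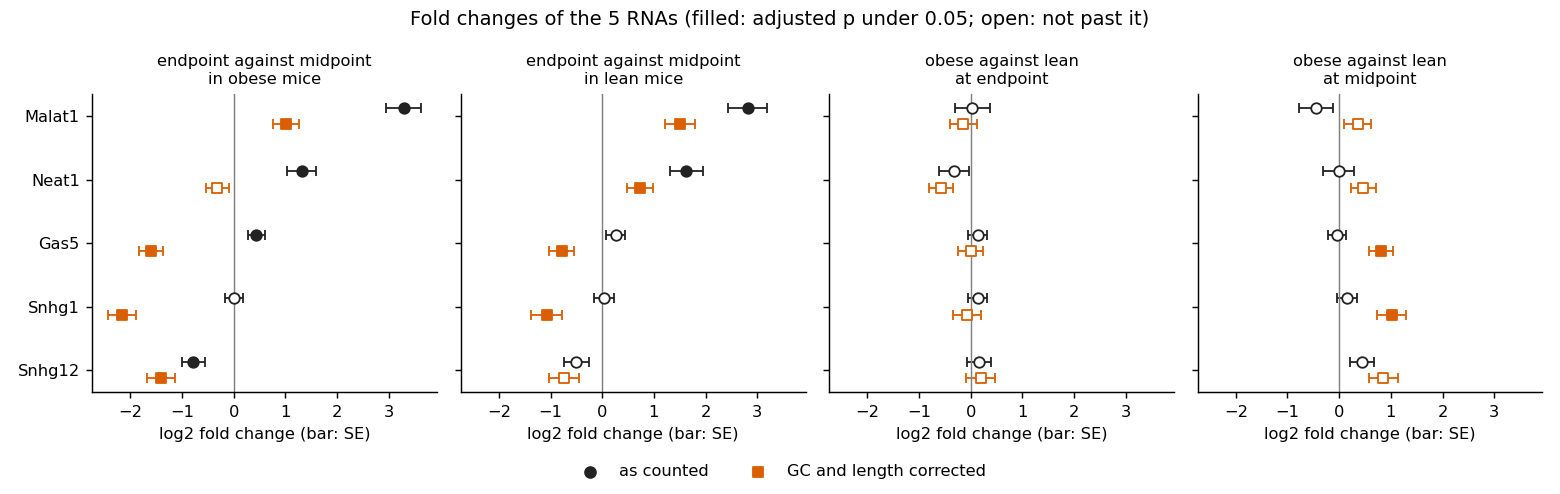
Log2 fold change of each RNA with its SE in 4 comparisons, as counted (black circles) and after the GC and length correction (orange squares), filled where the adjusted p is under 0.05. Malat1 keeps its rise with time in both versions, Gas5 and Snhg1 move to the left with the correction in both time comparisons, and no RNA is called between diets as counted.

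The values as counted can also be set beside those of genes of like GC content, without regard to length, which the correction uses as well. Among 3034 genes with 40% to 45% GC, the range that holds Malat1 (42.5%), Gas5 (42.3%) and Snhg1 (40.5%), the median log2 fold change with time was 1.94 in obese and 1.03 in lean mice. Malat1 at 3.29 and 2.81 lay above the upper quartile of these genes (2.62 in obese and 1.67 in lean mice). Gas5 and Snhg1 lay below the lower quartile (0.87 and 0.34). Among the 4229 genes with 45% to 50% GC, the range of Neat1 (47.3%) and Snhg12 (47.6%), the median was 0.69 in obese and 0.29 in lean mice. In obese mice Neat1 at 1.31 lay inside the quartiles of that range (-0.30 to 1.61), and in lean mice, at 1.63, above the upper one (0.91). Snhg12 lay below the lower quartile under both diets, at -0.78 in obese and -0.50 in lean mice.

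**Figure D3:**
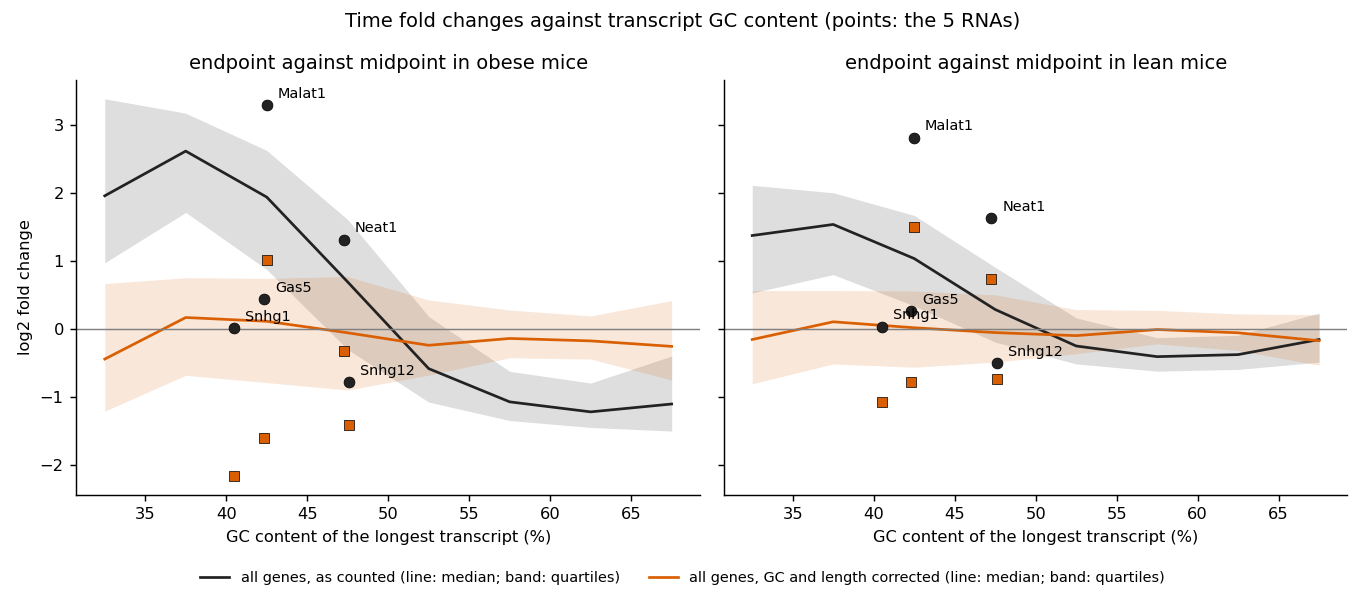
Log2 fold change from midpoint to endpoint against the GC content of the longest transcript, in obese (left) and lean mice (right). Lines are medians over all genes in 5-point bins with their quartiles as bands, and points are the 5 RNAs, black as counted and orange after the GC and length correction.

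Malat1 and Neat1 lie next to each other on chromosome 19, and their balance within a library does not depend on library scaling. Malat1 had 9.85 to 19.1 counts for each Neat1 count in obese endpoint libraries, against 3.00 to 4.19 in obese midpoint libraries. The log2 ratio of Neat1 to Malat1 averaged -3.71 ± 0.34 in obese endpoint and -1.78 ± 0.19 in obese midpoint libraries (SD, n = 5 each), a difference of -1.93 (exact two-sided permutation p = 0.0079, the smallest that 5 against 5 can give; 0.032 adjusted over 12 ratio tests). In lean mice Malat1 had 7.01 to 12.8 counts per Neat1 count at endpoint, against 3.64 to 7.14 at midpoint. The log2 ratio averaged -3.31 ± 0.39 in lean endpoint and -2.20 ± 0.44 in lean midpoint libraries (SD, n = 4 each), a difference of -1.10 that did not pass (exact permutation p = 0.057; adjusted 0.13). Without lean midpoint replicate 4, whose Neat1 was low, the difference was -1.31 (exact permutation p = 0.029). After the GC and length correction the differences were -1.30 in obese mice (exact permutation p = 0.0079; adjusted 0.048) and -0.76 in lean mice (exact permutation p = 0.057).

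The proteins that work with these RNAs moved in a mixed way. Of 14 genes of paraspeckle proteins, 8 rose and 3 fell in obese mice with a median log2 fold change of 0.85, and 7 rose and 0 fell in lean mice with a median of 0.69, where the median of all genes was -0.00 and 0.04. The shares of all genes tested were 37.8% up and 36.1% down in obese mice, and 21.4% and 9.5% in lean mice. Tardbp, an RNA-binding protein found in paraspeckles, rose by 1.86 in obese and 1.10 in lean mice. Hnrnph3, a heterogeneous ribonucleoprotein, rose by 1.66 and 1.24, and Cpsf6, a subunit of the 3′ end cleavage factor, by 1.26 and 0.90. Rbm14, which is needed for paraspeckle assembly, fell by 1.18 in obese mice. Of the defining paraspeckle proteins, Nono had a log2 fold change of 0.02 in obese mice (not called), and Sfpq, named here after its values were seen, rose by 0.79. After the correction 3 of the 14 rose and 7 fell in obese mice, and 2 rose and 1 fell in lean mice, with medians of -0.37 and -0.04.

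Among 16 genes of nuclear speckle and serine/arginine-rich (SR) splicing proteins, 11 rose and 2 fell in obese mice (median 0.96) and 7 rose and 1 fell in lean mice (median 0.51). Over all genes tested, 37.8% rose and 36.1% fell in obese mice, and 21.4% rose and 9.5% fell in lean mice. Son, a core protein of speckles, had a mean level of 436 ± 92.4 CPM in obese endpoint libraries and 76.0 ± 34.4 CPM in obese midpoint libraries (SD, n = 5 each). It rose by 2.52 in obese and 1.47 in lean mice on the log2 scale, and by 1.44 and 0.85 after the correction, called in all 4. Srsf10, an SR protein that regulates splicing, rose by 2.68 in obese and 1.96 in lean mice, and had 0.30 and 0.58 after the correction, neither of them called. Srsf5 rose by 1.61 in obese and 1.16 in lean mice, and fell by 0.67 in obese mice after the correction. Sf3a1, a subunit of the U2 particle of the spliceosome, fell by 0.82 in obese and 0.47 in lean mice. Over the list, 4 rose and 7 fell in obese mice after the correction, and 2 rose and 4 fell in lean mice.

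Of 11 other long noncoding RNAs tested, 9 rose and 1 fell in obese mice (median 1.04), and 6 rose and 0 fell in lean mice (median 0.93). All genes tested had 37.8% up and 36.1% down in obese mice, and 21.4% up and 9.5% down in lean mice. Mir155hg, the precursor transcript of a microRNA of immune cells, averaged 15.1 ± 5.19 CPM in obese endpoint libraries and 0.753 ± 0.279 CPM in obese midpoint libraries (SD, n = 5 each). It rose by 4.32 in obese and 2.94 in lean mice. Tug1, a widely expressed long noncoding RNA, rose by 3.55 and 2.51, and Mir22hg, the host of a microRNA, by 2.24 and 1.93. Xist, the RNA that silences an X chromosome, rose by 3.49 in obese mice and had 0.93 in lean mice, not called. After the correction 3 of the 11 rose and 5 fell in obese mice, and 3 rose and 0 fell in lean mice. The same 3 rose in both: Mir155hg (2.31 in obese and 1.79 in lean mice), Tug1 (0.94 and 0.93) and Mir22hg (0.96 and 1.28).

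Kcnq1ot1 is an antisense RNA made from the paternal copy of the Kcnq1 imprinted domain, where it silences neighbouring genes in cis. Inside its annotated span the table held 4 small RNA rows, all on the opposite strand, with 656 counts summed over the 18 libraries. Of 10 tested genes of the domain, 0 rose and 5 fell in obese mice (median -1.34), and 0 rose and 2 fell in lean mice (median -0.47). For all genes tested the shares that fell were 36.1% in obese and 9.5% in lean mice. Slc22a18, an organic cation transporter, fell by 2.09 in obese mice and fell by 1.75 in lean mice. Phlda2, a gene that restrains placental growth, fell by 1.52 in obese mice and fell by 0.84 in lean mice. Kcnq1, the potassium channel gene itself, fell by 1.33 in obese mice. After the correction 0 rose and 4 fell in obese mice (median -0.55), and 0 rose and 1, Slc22a18, fell in lean mice.

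Gas5 changed little with time as counted. After the correction, which sets it against genes of like GC content and length, it fell under both diets. Its row lies on chromosome 1 (161034422 to 161038539, plus strand, ENSMUSG00000053332) and joins 3 exon blocks of 3760 bases, 91.3% of the span, so reads from retained introns enter the count. The level was 322, 299, 312, 337 and 297 CPM in obese endpoint replicates 1 to 5, against 219, 275, 227, 228 and 209.6 CPM in obese midpoint replicates 1 to 5. Every obese endpoint library was above every obese midpoint library. In lean endpoint replicates 1, 2, 3 and 5 it was 431, 211, 216 and 286 CPM, against 229, 243, 224 and 259 CPM in lean midpoint replicates 1 to 4, and these groups overlapped. The log2 fold change was 0.44 ± 0.17 in obese mice (SE; adjusted p = 0.024) and 0.26 ± 0.19 in lean mice, not called (adjusted p = 0.28). The call in obese mice was lost without obese midpoint replicate 5 (0.40, adjusted p = 0.057). Once corrected for GC and length, Gas5 fell by 1.60 ± 0.23 in obese mice (SE; adjusted p = 8.6e-06) and by 0.79 ± 0.25 in lean mice (adjusted p = 0.027).

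Snhg1 hosts snoRNAs in nearly every intron and its spliced RNA is short-lived. The row, 1 block of 2947 bases on chromosome 19 (8723496 to 8726442, plus strand), is listed under ENSMUSG00000097188 and was matched by position to the GENCODE gene ENSMUSG00000108414. As the block fills the whole span, reads from retained introns enter the count here too. The level of Snhg1 was 74.9, 62.8, 66.3, 55.8 and 56.1 CPM in obese endpoint replicates 1 to 5, against 59.8, 75.2, 72.4, 57.1 and 49.4 CPM in obese midpoint replicates 1 to 5. In lean endpoint replicates 1, 2, 3 and 5 it was 75.6, 48.1, 36.9 and 69.9 CPM, against 57.1, 58.3, 54.8 and 55.0 CPM in lean midpoint replicates 1 to 4. All these groups overlapped, and the lean endpoint libraries were the most spread. The log2 fold change was 0.01 ± 0.18 in obese mice (SE; adjusted p = 0.97) and 0.03 ± 0.20 in lean mice (adjusted p = 0.91). After the correction it was the lowest of the 5 RNAs. Relative to genes of like GC content and length it fell by 2.16 ± 0.27 in obese mice (SE; adjusted p = 2.4e-06) and by 1.08 ± 0.29 in lean mice (adjusted p = 0.013).

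Snhg12, which hosts the H/ACA snoRNAs Snora16a, Snora44 and Snora61 and the C/D snoRNA Snord99, was lower at endpoint in obese mice in both versions. Its 2 exon blocks hold 1626 bases on chromosome 4 (132308678 to 132311024, plus strand, ENSMUSG00000086290). The level was 53.5, 49.0, 52.1, 42.9 and 36.7 CPM in obese endpoint replicates 1 to 5, against 59.0, 126, 86.9, 60.1 and 70.1 CPM in obese midpoint replicates 1 to 5. No obese endpoint library reached the lowest obese midpoint library, and midpoint replicate 2 was the highest. In lean endpoint replicates 1, 2, 3 and 5 it was 55.6, 43.0, 26.3 and 42.5 CPM, against 62.3, 52.2, 49.8 and 72.5 CPM in lean midpoint replicates 1 to 4. The lean groups overlapped through endpoint replicate 1. The log2 fold change was -0.78 ± 0.22 in obese mice (SE; adjusted p = 0.0037) and -0.50 ± 0.25 in lean mice, not called (adjusted p = 0.12). After the correction it was -1.41 ± 0.27 in obese mice (SE; adjusted p = 0.00016) and -0.74 ± 0.29 in lean mice, not called (adjusted p = 0.070). The lean change was called by limma-voom (-0.46, adjusted p = 0.043), with library totals in place of TMM (-0.89, adjusted p = 0.0074) and without obese midpoint replicate 2 (-0.54, adjusted p = 0.044).

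Set against each other within a library, the hosts changed by different amounts as counted. Gas5 had 5.99 to 8.09 counts for each Snhg12 count in obese endpoint libraries, against 2.17 to 3.79 in obese midpoint libraries. The log2 ratio of Snhg12 to Gas5 averaged -2.75 ± 0.22 in obese endpoint and -1.58 ± 0.34 in obese midpoint libraries (SD, n = 5 each), a difference of -1.17 (exact permutation p = 0.0079; adjusted 0.032). In lean mice it averaged -2.76 ± 0.33 at endpoint and -2.02 ± 0.20 at midpoint (SD, n = 4 each), a difference of -0.73 with the smallest p that 4 against 4 can give (exact permutation p = 0.029), which did not pass over the 12 tests (adjusted 0.086). After the correction these differences changed sign, to 0.23 in obese mice (exact permutation p = 0.048; adjusted 0.14) and 0.06 in lean mice (exact permutation p = 0.54).

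The ratio of Snhg1 to Gas5 moved less and kept its sign. On the log2 scale it averaged -2.32 ± 0.19 in obese endpoint and -1.89 ± 0.16 in obese midpoint libraries (SD, n = 5 each), a difference of -0.42 (exact permutation p = 0.0079; adjusted 0.032), and -0.58 after the correction (exact permutation p = 0.0079; adjusted 0.048). In lean mice it averaged -2.30 ± 0.26 at endpoint and -2.08 ± 0.11 at midpoint (SD, n = 4 each), a difference of -0.22 (exact permutation p = 0.20).

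**Figure D4:**
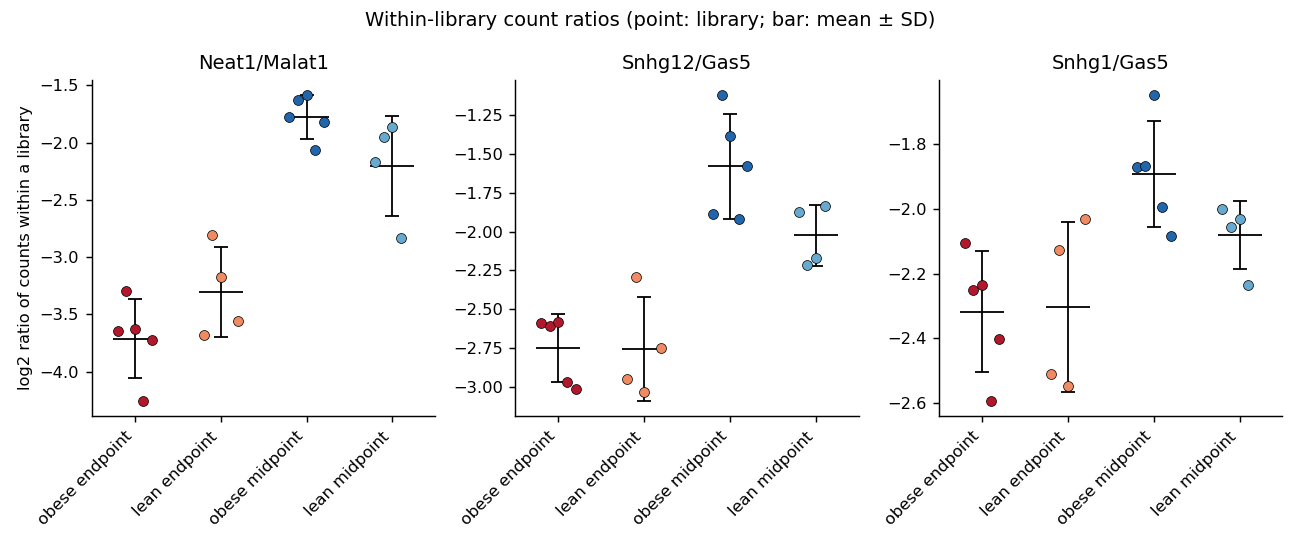
Log2 ratio of 2 RNAs counted in the same library, 1 point per library with the mean and SD of each group. Neat1 to Malat1, Snhg12 to Gas5 and Snhg1 to Gas5 were all lower in obese endpoint than in obese midpoint libraries without overlap.

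The snoRNAs themselves were close to absent from the table. Of 21 snoRNA rows inside the 3 hosts, 20 had 0 counts in all 18 libraries: all 9 in Gas5, all 8 in Snhg1 and 3 of 4 in Snhg12. Whether reads from these rows were given to the host, were left uncounted because they overlap the host, or were not captured was not tested. The exception was Snora16a, with 25 to 119 counts per library and 1203 in all. Its sequence is shown as the hosted RNA with counts of its own, with the ACA box in capitals (chr4:132309464-132309600, plus strand, mm10).
Snora16a: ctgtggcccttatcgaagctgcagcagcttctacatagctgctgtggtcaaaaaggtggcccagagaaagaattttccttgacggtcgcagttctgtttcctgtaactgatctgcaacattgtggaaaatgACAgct
The ACA box stands 3 bases before the 3′ end, the place that defines this class of snoRNA. Snora16a averaged 1.02 ± 0.313 CPM in obese endpoint, 1.09 ± 0.502 CPM in lean endpoint, 1.88 ± 0.412 CPM in obese midpoint and 1.14 ± 0.0423 CPM in lean midpoint libraries (SD, n = 5, 4, 5 and 4). Like its host Snhg12, it was highest in the obese midpoint group.

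Of 9 other noncoding snoRNA hosts tested, 0 rose and 6 fell in obese mice (median -0.49), and 0 rose and 0 fell in lean mice (median -0.21). Over all genes tested, 37.8% rose and 36.1% fell in obese mice, and 21.4% rose and 9.5% fell in lean mice. Snhg9 fell by 1.25 in obese mice, Snhg15 by 0.73, Snhg20 by 0.72 and Zfas1, a host with a TOP start, by 0.49. After the correction 1 rose and 5 fell in obese mice, and 0 rose and 2 fell in lean mice. Snhg5 fell by 1.62 and Snhg6 by 1.56 in obese mice after the correction, values near the 1.60 of Gas5, and both fell in lean mice too, by 0.88 and 0.72. Epb41l4aos, which as counted had -0.41 (not called), rose by 0.64.

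The proteins that snoRNAs work with changed in both directions, as did all genes tested (37.8% up and 36.1% down in obese mice). Of 16 genes for core and assembly proteins of snoRNPs, the snoRNA-protein particles, 5 rose and 8 fell in obese mice (median -0.40), and 3 rose and 2 fell in lean mice (median 0.05). After the correction 6 rose and 5 fell in obese mice (median -0.06), and 4 rose and 3 fell in lean mice (median 0.01). Nop58, a core protein of C/D particles, averaged 170 ± 47.6 CPM in obese endpoint and 17.6 ± 7.72 CPM in obese midpoint libraries (SD, n = 5 each). It rose by 3.27 in obese and 2.54 in lean mice, and by 1.39 and 1.40 after the correction. Dkc1, the pseudouridine synthase of H/ACA particles, rose by 2.68 and 2.11, and by 0.94 and 1.12 after the correction. Nop10, its small partner, fell by 1.12 in obese and 0.50 in lean mice, and by 2.01 and 0.88 after the correction. Naf1, an assembly factor of H/ACA particles, rose by 1.77 and 0.90.

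Nonsense-mediated decay is the route by which spliced Gas5 and its like are removed. Of 14 factors, 4 rose and 6 fell in obese mice (median -0.09), and 3 rose and 1 fell in lean mice (median -0.01). Among all genes tested, 37.8% rose and 36.1% fell in obese mice, and 21.4% rose and 9.5% fell in lean mice. Smg1, the kinase of the pathway, rose by 2.38 in obese mice and was called in lean mice too. Upf2 rose by 2.46 in obese and 1.88 in lean mice, and Upf3b by 2.21 and 1.93. Upf1, the central helicase, fell by 1.17 in obese and 0.59 in lean mice. After the correction 0 rose and 8 fell in obese mice, where Smg1 had 0.24 and Upf2 0.54, neither called, and 1 rose and 1 fell in lean mice.

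Messages of the translation machinery known to start with a TOP stretch changed in both directions. Of 17 tested, ribosomal protein genes left aside, 6 rose and 8 fell in obese mice (median -0.02), and 6 rose and 2 fell in lean mice (median -0.12). Both directions were common among all genes tested, with 37.8% up and 36.1% down in obese mice and 21.4% and 9.5% in lean mice. Nap1l1, a histone chaperone, rose by 2.68 in obese and 1.54 in lean mice, and Npm1, nucleophosmin, by 2.97 and 1.43. Eef1g and Rack1 fell by 1.28 and 1.19 in obese mice. After the correction 4 rose and 8 fell in obese mice, and 1 rose and 2 fell in lean mice.

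Of the genes that flank Malat1 and Neat1, 0 rose under either diet. All 10 tested neighbours fell in obese mice (median -1.10), and 0 rose and 1, Dpf2, fell in lean mice (median -0.44). The shares of all genes tested that fell were 36.1% in obese and 9.5% in lean mice. Medians of all genes by GC content in obese mice ran from 2.61 at 35% to 40% GC to -1.22 at 60% to 65%. The GC content of the neighbours was not compared, so these falls are not shown to be particular to the locus. Frmd8, the gene beside Neat1, fell by 1.66 in obese mice and had -0.56 in lean mice, not called. After the correction 0 rose and 6 fell in obese mice (median -0.37), and 0 rose and 2 fell in lean mice (median -0.24). Of 10 neighbours of Gas5, Snhg1 and Snhg12, 1 rose and 6 fell in obese mice (median -0.53), and 1 rose and 1 fell in lean mice (median -0.36). After the correction 0 rose and 8 fell in obese mice, and 0 rose and 2 fell in lean mice. The 1 that rose as counted was Zbtb37, by 2.06 in obese and 0.91 in lean mice. It overlaps Gas5 on the opposite strand, and without a stated strand setting reads of the overlap cannot be told apart. After the correction Zbtb37 had -0.21 in obese mice, not called.

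**Figure D5:**
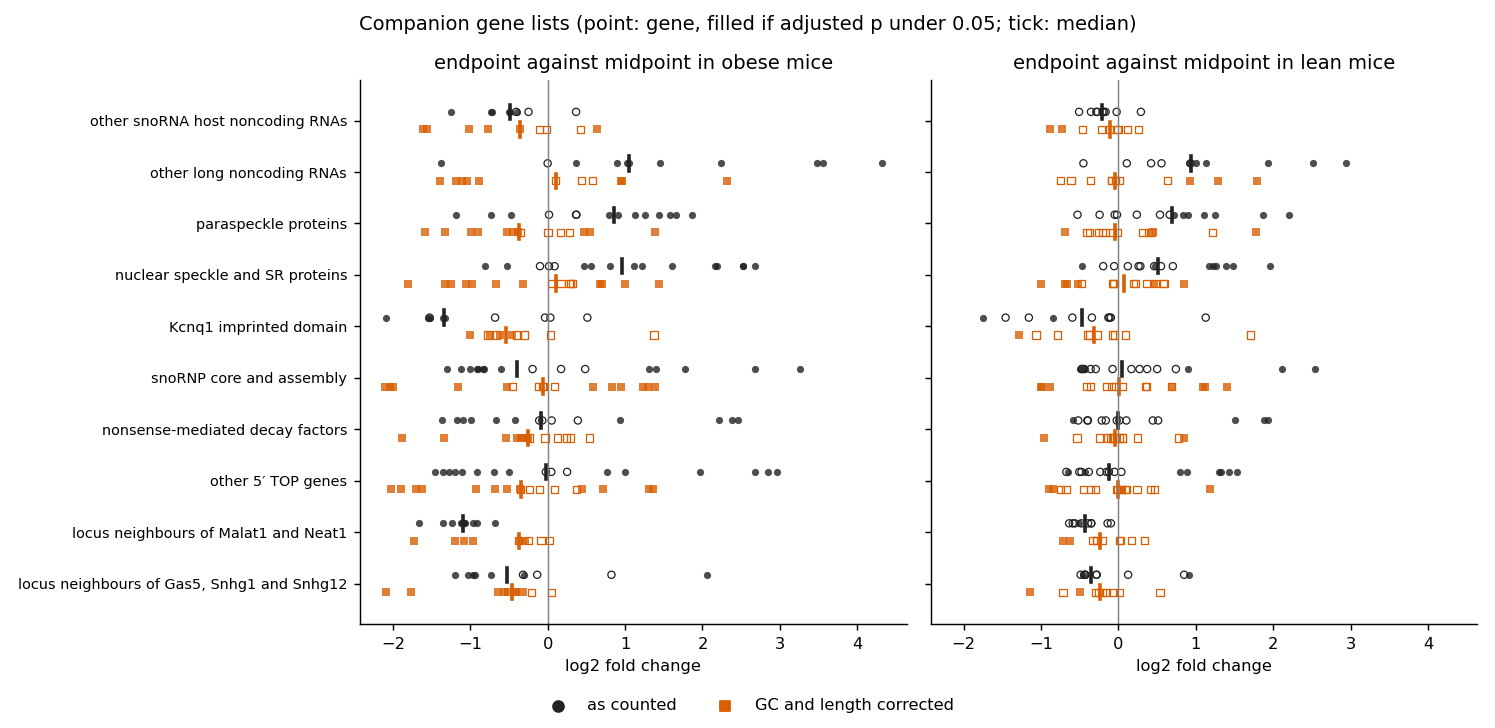
Log2 fold change with time of every tested gene in the 10 companion lists, in obese (left) and lean mice (right), black as counted and orange after the GC and length correction, filled where the adjusted p is under 0.05, with the list median as a tick. The paraspeckle, speckle and other long noncoding RNA lists have medians above 0 as counted, and the 2 lists of neighbours have medians below 0 in both versions.

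By the measure of likeness used, Pearson's r of log2 CPM over the 18 libraries among 9413 genes whose mean reached 5 CPM, the genes most like Malat1 were Fnbp1l (r = 0.991), Clmp (0.991) and Kdm7a (0.987). Those most like Neat1 were Ppp4r1l-ps (0.954), Insr (0.945) and Spaca6 (0.932). Among those most like Gas5 were the snoRNA host Snhg6 (0.874) and the ribosomal protein gene Rpl5 (0.870). Among those most like Snhg1 were Glipr2 (0.866) and Shmt1 (0.759). For Snhg12 they were Yars (0.972), Tagln2 (0.967) and Spout1 (0.967). These values are descriptions, since all genes of a library share its depth, its GC slope and its time point. With Spearman's rank correlation in place of Pearson's, 0 of the 3 most alike genes stayed among the top 3 for Malat1 and Neat1, 2 for Gas5, and 1 each for Snhg1 and Snhg12.

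Between diets, 0 of the 5 RNAs were called as counted at either time, and 2 at midpoint after the correction. At midpoint 0 of the 5 were called as counted by edgeR, where 29.5% of all genes were, and 0 passed at an unadjusted p under 0.05. DESeq2 and limma-voom called 0 of the 5 too. Malat1 averaged 329 ± 38.1 CPM in obese midpoint (SD, n = 5) and 447 ± 63.8 CPM in lean midpoint libraries (SD, n = 4), with every obese library below every lean one. The log2 fold change of -0.44 ± 0.33 did not pass (SE; adjusted p = 0.29), and it was 0.36 ± 0.27 after the correction (adjusted p = 0.37). How many of all genes had obese and lean midpoint libraries without overlap was not counted. Snhg12 averaged 80.5 ± 27.9 CPM in obese midpoint and 59.2 ± 10.4 CPM in lean midpoint libraries (SD, n = 5 and 4), a log2 fold change of 0.44 ± 0.24 (SE; adjusted p = 0.14). Neat1 (-0.01 ± 0.29), Gas5 (-0.04 ± 0.18) and Snhg1 (0.16 ± 0.19) were closer to 0, and their groups overlapped. After the correction 2 of the 5 were called, both higher in obese mice, where 12.1% of all genes were called, 8.74% higher and 3.33% lower: Gas5 by 0.81 ± 0.24 (SE; adjusted p = 0.037) and Snhg1 by 1.02 ± 0.28 (adjusted p = 0.032). Snhg12 was just short of the threshold, at 0.86 ± 0.28 (adjusted p = 0.051). The background of 4825 genes as counted rested on single libraries: it was 0 when any of lean midpoint replicates 2 and 3 or obese midpoint replicates 2 and 3 was dropped. It was 2597 on dropping replicate 1 of the lean midpoint group, 2625 on dropping replicate 5 of the obese midpoint group, and 7946 on dropping replicate 1 of the obese midpoint group.

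At endpoint 0 of the 5 RNAs were called between diets, as counted and after the correction, against 0.00612% of all genes in each (1 gene). Malat1 averaged 3211 ± 1333 CPM in obese endpoint (SD, n = 5) and 3136 ± 1817 CPM in lean endpoint libraries (SD, n = 4), a log2 fold change of 0.03 ± 0.33 (SE). Neat1 averaged 240.1 ± 90.2 CPM in obese endpoint and 301 ± 159 CPM in lean endpoint libraries (SD, n = 5 and 4), a log2 fold change of -0.33 ± 0.29 (SE), and -0.58 ± 0.23 after the correction (adjusted p = 0.55). Gas5 (0.13 ± 0.18), Snhg1 (0.13 ± 0.19) and Snhg12 (0.16 ± 0.23) differed by less than their SE. All 5 pairs of groups overlapped. At an unadjusted p under 0.05, 0 of the 5 passed as counted and 1, Neat1, after the correction, while 800 and 1313 of all genes did. DESeq2 and limma-voom called 0 of the 5 as well.

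The difference between the diets in the change with time was tested directly as a diet by time interaction. It was called for 0 of the 5 RNAs, and for 0% of all genes by edgeR, with 0 of the 5 and 5451 of all genes at an unadjusted p under 0.05. DESeq2 called 1681 genes and limma-voom 5119, and 0 of the 5 RNAs were among either. Without obese midpoint replicate 1, edgeR called 5656 genes. The interaction was 0.48 ± 0.47 for Malat1 (SE; adjusted p = 0.46), -0.32 ± 0.42 for Neat1, 0.18 ± 0.25 for Gas5, -0.03 ± 0.27 for Snhg1 and -0.28 ± 0.33 for Snhg12. After the correction all 5 were negative, from -1.08 ± 0.39 for Snhg1 (SE; adjusted p = 0.12) and -1.05 ± 0.33 for Neat1 (adjusted p = 0.091) to -0.50 ± 0.38 for Malat1 (adjusted p = 0.43), and 0 were called, with 3 at an unadjusted p under 0.05. The calls of Gas5 and Snhg12 in obese mice alone, as counted, are therefore not shown to differ from the lean values. Nor is the call of Neat1 in lean mice alone, after the correction, shown to differ from the obese value.

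Other cell types could add their own copies of these RNAs to a sorted sample. Of the 6 carcinoma markers, Krt8, an epithelial keratin, was the 1 that passed the filter, with 20.9 ± 2.51 CPM in obese endpoint, 24.6 ± 4.43 in lean endpoint, 47.8 ± 12.6 in obese midpoint and 29.2 ± 7.28 in lean midpoint libraries (SD). Krt18, Krt19, Krt7, Epcam and Cdh1 were under 0.25 CPM in every library. Of 9 pan-leukocyte markers, 3 rose and 3 fell with time in obese mice and 0 rose and 5 fell in lean mice. After the correction 0 rose and 1 fell in obese mice, and 0 rose and 3 fell in lean mice. Their summed level was 77.9 to 279 CPM in obese endpoint, 97.9 to 148 in lean endpoint, 95.2 to 154 in obese midpoint and 115 to 221 in lean midpoint libraries. Macrophage and monocyte markers summed to 134 to 733, 243 to 415, 179 to 351 and 239 to 562 CPM in the same groups, with 2 of 12 up and 0 down in obese mice and 1 up and 1 down in lean mice. After the correction 1 was up and 1 down in obese mice, and 0 up and 2 down in lean mice. Fibroblast markers summed to 1644 to 2773, 1569 to 2376, 974 to 2520 and 1919 to 2264 CPM, with 4 of 7 up and 2 down in obese mice and 3 up and 2 down in lean mice. After the correction 3 were up and 2 down in obese mice, and 2 up and 3 down in lean mice. The fibroblast sum rested on Col3a1 and Pdgfra, picked out here by their level. They averaged 1847 ± 413 and 355 ± 33.3 CPM in obese endpoint libraries (SD, n = 5). Every other fibroblast marker of the list averaged 30.7 CPM or less in each group.

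The scarcer lists moved as follows with time. T and NK cell markers summed to at most 9.36 CPM in any library, and 0 of 6 rose and 4 fell in obese mice and 0 rose and 3 fell in lean mice. B cell (2 tested) and endothelial markers (5 tested) had 0 up in both, and 1 endothelial marker was down in each. Of 3 neutrophil markers 1 was up in lean mice, of 5 erythroid markers 2 were up in obese mice, and of 2 adipocyte markers 1 was up and 1 down under each diet. After the correction the T and NK, B and endothelial counts were as before. Of the neutrophil markers 0 were then up under either diet and 1 was down in obese mice, and of the erythroid markers 4 were up in obese mice. Of the adipocyte markers 1 was then down in obese mice and 1 up in lean mice. No marker of these lists was at 0 in every library. Their part in the levels of the 5 RNAs was not tested.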

How the data were processed

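The authors deposited 1 table of read counts per gene for tumor cells sorted by mCherry. The deposited values are whole numbers of at least 0 that sum to different totals, which was checked in every column, endpoint columns and all other columns alike. TopHat, DESeq and the build mm10 are named, without versions or roles, in the submitters' processing notes, and no source used here gives the strand setting, the treatment of multi-mapped reads or the counting tool. Counts of near-identical copies or overlapping genes could be split by that unknown setting. The deposited row positions on mm10 were used, with 37607 rows named through GENCODE M21 by identifier and 422 by coordinates with at least 90% reciprocal overlap.

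Groups follow the labels, which number replicates without naming animals, so p-values measure the spread between these libraries. Lean endpoint replicate 4 (11889188 counts) was left out, as its counts stop within chromosome 5. Counts of the other 18 libraries were fitted together with edgeR 4.0.16 in R 4.3.3 (quasi-likelihood test, TMM scaling, filterByExpr) over 16352 genes, and p-values were adjusted by the Benjamini-Hochberg method over all of them for each of 5 contrasts. The SE of a log2 fold change is its size divided by the square root of F. The GC and length correction adds to each library an offset fitted by splines with 5 degrees of freedom each. They use the GC content of the longest transcript, known for 99.0% of the genes, and the log2 exon length of the row. Ratios used log2 of count plus 2 and exact two-sided permutation tests. Alternatives were DESeq2 1.42.0, limma-voom (limma 3.58.1), other scalings and filters, a replicate block and leaving out each library. The scripts were tested on simulated data.

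The members and gene lists were chosen with earlier results of these data known. From each list at most 4 genes with the smallest p in a comparison, in either version, were to be named, and all others only counted. Some genes that this rule or the likeness measure would name are not reported here. Log2 CPM for likeness used a prior count of 2. Counting error is small at these depths (members had at least 1303 counts in each library).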

Additional observations from a re-analysis of the deposited data

Results flagged for a closer look

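In 3 of the 32 groups of values examined, 1 library stood far from the others of its group by Dixon's criterion at the 95% level, which chance alone meets in about 1 of 20 groups. Neat1 in lean midpoint replicate 4 was 74.0 CPM, where the nearest of the other 3 was 103 CPM, a gap of 0.87 of the range. Neat1 in obese endpoint replicate 5 was 398.5 CPM, where the nearest of the others was 228 CPM, a gap of 0.79 of the range. This library also had the highest Malat1 of its group. Gas5 in obese midpoint replicate 2 was 275 CPM (274.6), where the nearest of the others was 228 CPM, a gap of 0.72 of the range. Snhg12 and Snhg1 were highest in the same library.

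The lean endpoint library that was left out, replicate 4, held 13474 counts of Gas5 and 2253 counts of Snhg12, whose genes lie on chromosomes 1 and 4, in a total of 11889188 counts. Malat1, Neat1 and Snhg1 lie on chromosome 19, which has no counts in it.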

How the results depend on the processing

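Malat1 (both diets) and Snhg12 (obese mice) kept their direction and call with time under every alternative run. Neat1 as counted kept its call in lean mice except with the correction for GC and length plus the replicate block (0.66, adjusted p = 0.066). In obese mice it turned to -0.32 with the correction and -0.27 with both. With the correction the median of all genes stands at -0.11 in obese mice over time, against -0.0015 as counted. With library totals in place of TMM that median stands at -0.17 at midpoint, 0.10 at endpoint, -0.32 in lean mice over time and 0.29 in the interaction, against -0.0010, -0.0049, 0.036 and 0.0048 with TMM. The causes of the shifts below were not tested. With 4 or 5 libraries a group, differences within the SEs given could not be detected, and some well above their SE were not called either. A ratio of Kcnq1ot1 to Malat1 was not run because no row was assigned to Kcnq1ot1.

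With the GC and length correction, values that turned were at midpoint Malat1 0.36, Neat1 0.47 and Gas5 0.81; at endpoint Malat1 -0.14, Gas5 -0.0018 and Snhg1 -0.067; in lean mice over time Gas5 -0.79 and Snhg1 -1.08; in obese mice over time Gas5 -1.60 and Snhg1 -2.16; and in the interaction Malat1 -0.50 and Gas5 -0.81. The ratio of Snhg12 to Gas5 turned to 0.064 in lean and 0.23 in obese mice. The correction called 2 members at midpoint and 4 in lean mice, and 1974 genes at midpoint.

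With library totals Snhg1 was -0.034 at midpoint, -0.36 in lean and -0.040 in obese mice and 0.32 in the interaction, Gas5 was -0.17 in lean mice, and the interactions of Neat1 and Snhg12 were 0.036 and 0.086. Limma-voom gave Snhg1 -0.061 at midpoint and 0.18 in the interaction, and Neat1 0.12 in the interaction. For Snhg1 in lean mice, RLE size factors gave -0.0095, DESeq2 -0.0096 and no filter -0.024. Its interaction was 0.078 with RLE factors, 0.079 with DESeq2, 0.11 with no filter, 0.062 with a filter of 5 CPM and 0.081 without mitochondrial and structural RNA genes.

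Genes called at midpoint numbered 499 with library totals, 8458 with limma-voom and 0 with only the groups compared in the fit. At endpoint they were 13 with DESeq2 and 0 with library totals, limma-voom or only the groups compared. For the interaction they were 1681 with DESeq2, 1 with library totals and 5119 with limma-voom.

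Between tumors with the same replicate number, the correlation of deviations from group means ran from -0.40 to 0.55 over 24 pairs (median -0.04, 6 over 0.1). Pairs of unlike number were not compared, so whether the numbers pair tumors was not tested. A replicate block left 0 genes called at endpoint and gave a Snhg1 interaction of 0.00010. Paired, the ratios were -1.93 for Neat1 to Malat1, -0.42 for Snhg1 to Gas5 and -1.17 for Snhg12 to Gas5 in obese mice (each exact permutation p = 0.063, the smallest that 5 pairs allow). In lean mice replicates 1, 2 and 3 alone could be paired. The ratio of Snhg12 to Gas5 was -0.67 there (exact permutation p = 0.25, the smallest that these pairs allow, so it could not pass). Snhg1 to Gas5 at endpoint was 0.056. The block with the correction called 1 gene at midpoint and 3027 in lean mice. It called 0 of the 5 RNAs at midpoint, with Gas5 at 0.80 (adjusted p = 0.060) and Snhg1 at 0.98 (adjusted p = 0.054). It gave at midpoint Malat1 0.38 and Neat1 0.49, at endpoint Malat1 -0.12, in lean mice Gas5 -0.79 and Snhg1 -1.16, in obese mice Gas5 -1.57 and Snhg1 -2.13, and in the interaction Malat1 -0.50 and Gas5 -0.78.

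Leaving out each library in turn, genes called ranged from 0 to 7946 at midpoint, 0 to 1 at endpoint, 3251 to 6388 in lean mice, 11563 to 12390 in obese mice and 0 to 5656 for the interaction. Members called ranged from 2 to 3 in lean and 3 to 4 in obese mice. Log2 fold changes ranged at midpoint from -0.16 to 0.066 (Neat1); at endpoint from -0.24 to 0.35 (Malat1), -0.031 to 0.30 (Snhg1) and -0.0051 to 0.34 (Snhg12); in lean mice from -0.032 to 0.37 (Gas5) and -0.15 to 0.20 (Snhg1); in obese mice from -0.069 to 0.082 (Snhg1); and in the interaction from -0.58 to 0.0095 (Neat1) and -0.19 to 0.21 (Snhg1). Ratio differences ranged from 0.22 to 0.54 (Neat1 to Malat1, midpoint), -1.31 to -0.98 (the same, lean mice), 0.13 to 0.24 (Snhg1 to Gas5, midpoint), -0.094 to 0.078 (the same, endpoint), -0.89 to -0.64 (Snhg12 to Gas5, lean mice) and -0.088 to 0.16 (the same, endpoint).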
